A study of Mus musculus with 6 samples.

Results

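Nucleolar ribosome assembly factors were described across 6 polyA RNA libraries made from T-ALL tumours of mice; T-ALL, acute lymphoblastic leukaemia of the T lineage, is a cancer of immature T cells. A gene was taken as a member when its symbol began with Utp, Nop, Nol, Rrp, Rrs, Ddx or Imp followed by a digit, or was one of 18 further names such as Bop1, Fbl or Npm1, and when its mean value over the libraries was at least 10 normalised reads. The symbols alone selected 93 genes and 90 of them passed the threshold, out of 23306 genes measured. Nol3 lay just inside it, with group means of 9.52 ± 2.71 (SD, n = 3) in wild type and 10.6 ± 3.0 in knockout. Just outside were Ddx43 (8.65 ± 0.65 and 8.83 ± 5.40), Ddx4 (5.75 ± 0.68 and 6.48 ± 3.83) and Wdr74 (2.23 ± 1.09 and 2.42 ± 1.61). All 90 members also passed the filter of the test.

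The leukaemias were isogenic, of the C57BL/6 strain, and the tumour was taken from bone marrow. Phf6 WT (wild type) and Phf6 KO (knockout) had 3 libraries each. Phf6 was deleted through a Cre recombinase that tamoxifen induces, and the vehicle was corn oil. The labels give tamoxifen or vehicle for all 6 samples without saying which received the drug, so an effect of tamoxifen and the loss of Phf6 cannot be told apart if only knockout tumours received it. Neither the promoter that drives Cre nor the age of the animals is given. Phf6 is an X-linked gene for a PHD finger protein that is found in the nucleolus and nucleoplasm. The labels do not name separate animals, so the p-values measure the spread between these samples only, which may be technical. The headers of the deposited columns hold a different number for each library, but do not say that it stands for an animal. Leukaemias of a single isogenic origin do not stand for other T-ALLs, and in bulk tumour, fewer cells of a type and less RNA per cell cannot be told apart.

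A ribosome is assembled in the nucleolus, where RNA polymerase I makes a long precursor that is folded, modified and cut while ribosomal proteins join it. Small nucleolar ribonucleoproteins (snoRNPs) guide the chemical marks, the small subunit processome gathers on the 5′ part of the precursor, and a second set of factors shapes the large subunit. DEAD-box helicases, named for a conserved run of amino acids, use ATP to open RNA duplexes at many of these steps. Dividing leukaemia cells use this pathway heavily, and the transcription factor MYC is well known to raise many of its genes.

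Library totals were 51011800 to 54953145 reads in wild type and 46067511 to 47110984 in knockout. The targeted gene was lower in each knockout library: Phf6 had 5508, 4240 and 5075 normalised reads (counts divided by a factor for each library) in wild type and 1781, 2337 and 1755 in knockout, here and later in the order of library numbers. By its log2 fold change Phf6 in knockout was at 0.395 of wild type, so Phf6 RNA remained in the knockout libraries (log2 fold change -1.34 ± 0.13 SE, limma adjusted p = 0.00184 by Benjamini-Hochberg). Of 15 T-lineage markers listed, 14 were found among the genes measured. They summed to 6031 to 6743 CPM (reads scaled to the same library total) in wild type and 5303 to 6322 in knockout. In limma 4 were called lower, and 6 were lower at an unadjusted p under 0.05. Of all genes tested 3.43% were called lower and 5.32% higher. At an unadjusted limma p under 0.05, 12.5% of all genes were lower and 12.7% higher. Of 20 neutrophil and granulocyte precursor markers 10 were called higher and none was at 0 in all libraries. All 20 were higher in knockout without overlap (15.0% of all genes tested were) and at an unadjusted limma p under 0.05. Their median log2 fold change was 2.49, and they summed to 143 to 532 CPM in wild type and 1291 to 1632 in knockout. Monocyte and macrophage markers (6 of 15 called higher in limma, 10 at an unadjusted p under 0.05) summed to 58.9 to 123 and 192 to 317 CPM. B-cell markers (7 of 9 tested called higher in limma, 8 at an unadjusted p under 0.05) summed to 3.15 to 4.35 and 7.53 to 18.1 CPM. Erythroid markers (0 of 9 tested called in limma, 1 at an unadjusted p under 0.05) summed to 6.48 to 12.1 and 8.60 to 19.5 CPM. The part of these markers in the results that follow was not tested.

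Most nucleolar assembly factors were slightly lower in the knockout libraries, and Bop1 and Bysl had the largest called differences among the ribosome assembly members. Of the 90 members 75 (83.3%) had a log2 fold change below 0, beside 51.7% of the 17993 genes tested, and the median was -0.13, beside -0.01. Knockout was called lower for 10 members and higher for 1 (limma on log2 of the value plus 2, Benjamini-Hochberg adjusted p below 0.05 over all genes tested). The background was 3.43% of all genes tested called lower and 5.32% called higher, against 11.1% and 1.11% of the members; 8.75% were called in either direction. In 41 members all 3 knockout values lay below all 3 wild-type values, which held for 16.2% of all genes tested and 45.6% of the members. In 5 the knockout values lay above, against 15.0% of all genes.

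Members are abundant genes, and abundant genes were more often lower. Among the 8345 tested genes with a mean of at least 741 normalised reads, the 5th percentile of the members, 5.86% were called lower, 24.2% had no overlap with knockout lower, and the median log2 fold change was -0.07. Together the members took 1.69%, 1.69% and 1.67% of all reads in wild type and 1.59%, 1.63% and 1.60% in knockout. Every knockout share lay below every wild-type share. Such a sum is weighted by the most abundant members, so it says little about the others.

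The count of calls rested on single libraries more than the direction did. Without wild-type library 1, 2 or 3 the number of members called lower was 1, 9 or 2. Without knockout library 1, 2 or 3 it was 3, 7 or 1. Over all genes tested 0.496%, 4.40% or 0.951% were called lower without the same wild-type libraries. Without the knockout libraries 1.96%, 1.92% or 0.326% were, against 3.43% with no library left out. Calls thus changed over the whole table and not in the members alone. In these settings 69 to 77 members had a log2 fold change below 0. With library totals as the scaling, 5 members were called lower and 2 higher, 57 were below 0 and 24 did not overlap with knockout lower. Over all genes that scaling turned 957 higher and 618 lower calls into 1217 and 300 (1.67% lower). It moved the median log2 fold change of all genes from -0.01 to 0.07 and that of the members from -0.13 to -0.045. The shares of all genes below 0 and without overlap are not given for this scaling. The share below 0 is also not given with a library left out.

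**Figure D1:**
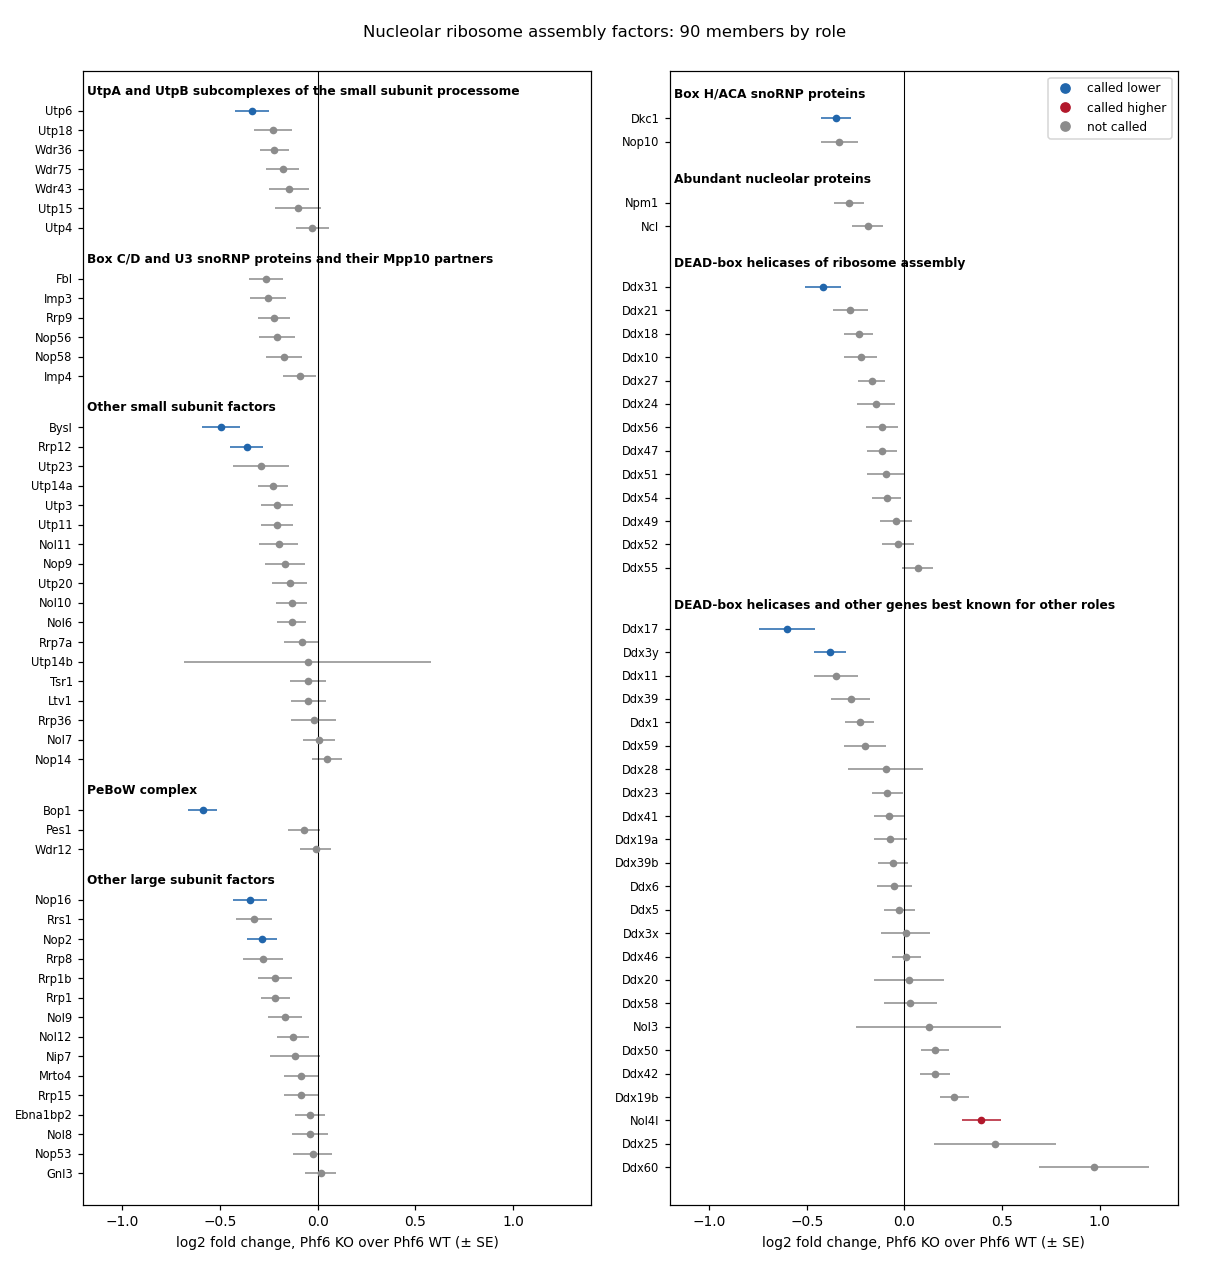
Log2 fold change of Phf6 KO over Phf6 WT with its SE (horizontal axis, log2 scale) for each of the 90 members, in blocks by role; blue points were called lower, red higher and grey not called. In 8 of the 9 blocks nearly every point lies left of 0, and Bop1 at -0.59 stands apart from the other PeBoW subunits Pes1 (-0.07) and Wdr12 (-0.01), whose directions turn with library total scaling.

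The PeBoW complex, which is needed to cut and mature the precursor of the large subunit RNA, consists of Pes1, Bop1 and Wdr12. Bop1 (ENSMUSG00000022557; GRCm38 chromosome 15, 76452989 to 76477277, minus strand, protein coding) had 7636, 7896 and 8115 normalised reads in wild type and 5335, 5151 and 5221 in knockout. The groups were separated by a gap wider than either group's range. The means were 7882 ± 240 and 5236 ± 92.9 (SD, n = 3 each), and Bop1 fell by 0.59 on the log2 scale (SE 0.07; limma adjusted p = 0.00339). It was called lower in all 16 alternatives run, with log2 fold changes between -0.61 and -0.51 and adjusted p between 0.000680 and 0.0338, and no other member was called in each of them.

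Its partners did not pass the test, and with library total scaling their log2 fold changes turned to 0.014 for Pes1 and 0.074 for Wdr12. Pes1, which carries a BRCT domain, had 7704, 8593 and 7845 reads in wild type and 7847, 7873 and 7272 in knockout (log2 fold change -0.07 ± 0.08 SE). Wdr12, a WD-repeat protein, had 5682, 5207 and 5486 in wild type and 5126, 5421 and 5725 in knockout (-0.01 ± 0.08). Values of both groups overlapped for both genes.

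Ratios within a library do not depend on how libraries are scaled. The log2 ratio of Bop1 to Pes1 was -0.01, -0.12 and 0.05 in wild type and -0.56, -0.61 and -0.48 in knockout, a difference of -0.52. That of Bop1 to Wdr12 was 0.53 ± 0.09 (SD, n = 3) in wild type and -0.05 ± 0.10 in knockout. Neither ratio overlapped between groups, and that of Pes1 to Wdr12 did (0.56 ± 0.15 and 0.50 ± 0.14). In the exact two-sided permutation test both Bop1 ratios had p = 0.1, the smallest that 3 against 3 allows, and Pes1 to Wdr12 had p = 0.7; over the 6 ratios computed, which were chosen after the values were seen, the adjusted p was 0.15 and 0.7. The exons of Bop1 overlap Mroh1 on the opposite strand, and the strand setting of the counting is not given in the sources used here. Mroh1 had 2843 ± 62 reads in wild type and 2364 ± 212 in knockout (log2 fold change -0.27 ± 0.09, limma adjusted p = 0.0952).

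**Figure D2:**
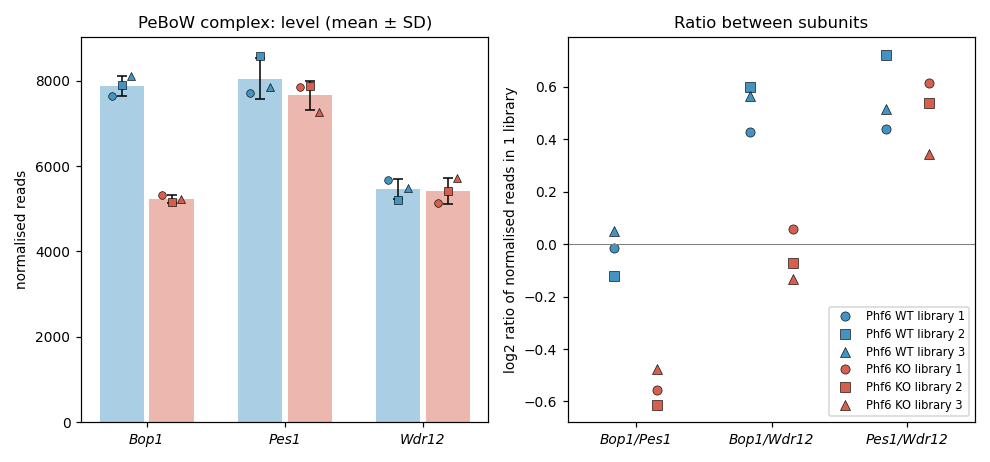
Left, normalised reads (linear axis from 0) of the 3 PeBoW subunits, where each point is a library, each bar the mean of a group and each whisker its SD (n = 3); right, the log2 ratio between 2 subunits within each library. Bop1 is at 5151 to 5335 in knockout and 7636 to 8115 in wild type, while the groups overlap for Pes1, for Wdr12 and for their ratio.

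Other factors of the large subunit were mostly lower by smaller amounts. Of 15 members 2 fell, Nop16 and Nop2, 14 had a log2 fold change below 0, and the median was -0.13. The background over all genes tested was 3.43% called lower, 51.7% below 0 and 16.2% without overlap with knockout lower. Nop16 (chromosome 13, 54584185 to 54590090, minus strand), a nucleolar protein of the early large subunit precursor, had 3149, 3414 and 3311 reads in wild type and 2814, 2531 and 2434 in knockout (log2 fold change -0.35 ± 0.09 SE, limma adjusted p = 0.0377). Nop2 (chromosome 6, 125131909 to 125144753, plus strand), a cytosine methyltransferase of the large subunit RNA, had 7058, 7353 and 7068 and then 5709, 6264 and 5687 (-0.28 ± 0.08, limma adjusted p = 0.0496). For both genes each knockout library was below each wild-type library.

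Rrs1, which brings the 5S particle into the precursor, lay just past the threshold. It had 5133, 5756 and 5030 reads in wild type and 4367, 4483 and 3850 in knockout (-0.33 ± 0.09, limma adjusted p = 0.0555). Rrp1 and Rrp8 had log2 fold changes of -0.22 and -0.28 (limma adjusted p = 0.0978 and 0.116), also without overlap between groups. The values of the other 10 ran from -0.22 for Rrp1b to 0.01 for Gnl3, which encodes the GTPase nucleostemin. The 2 calls of this group were lost with library totals, with upper quartile scaling, without trend and robust variance, and without any 1 of wild-type libraries 1, 2 and 3 and knockout libraries 2 and 3, while 1 was left without knockout library 1. Nop2 lost its call in 10 of 16 alternatives and Nop16 in 9.

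Small subunit factors were described in 3 groups. Among the UtpA and UtpB subcomplexes, the first parts of the processome to bind the precursor, all 7 members had values below 0 with a median of -0.18, and Utp6 fell. Of all genes tested 51.7% were below 0 and 3.43% were called lower. Utp6 (chromosome 11, 79932321 to 79962390, minus strand), a UtpB subunit, had 6097, 5495 and 5768 reads in wild type and 4620, 4916 and 4218 in knockout (-0.34 ± 0.09, limma adjusted p = 0.0402). The call was lost in 7 of 16 alternatives, among them without wild-type library 1 or 3 or knockout library 1 or 3. Its UtpB partners Wdr36 and Utp18 had log2 fold changes of -0.22 and -0.23 (limma adjusted p = 0.0917 and 0.180). Wdr75 of UtpA was at -0.18, and Utp4, also of UtpA, at -0.03.

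The box C/D proteins bind the snoRNAs that guide ribose methylation, and with Rrp9 they form the U3 particle; Imp3 and Imp4 join U3 to the precursor. None of these 6 passed the adjusted threshold in limma, and 4 were lower at an unadjusted p under 0.05. Of all genes tested 12.5% were lower at that unadjusted limma p, and 3.43% were called lower. The methyltransferase gene Fbl had 16063, 17470 and 16685 reads in wild type and 15177, 13902 and 12798 in knockout (-0.26 ± 0.09, limma adjusted p = 0.0906). Imp3 was at -0.26, Rrp9 at -0.22, Nop56 at -0.21, Nop58 at -0.17 and Imp4 at -0.09. Knockout values lay below wild-type values without overlap for Fbl, Imp3, Rrp9 and Nop56, as they did for 16.2% of all genes tested.

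Among 18 other small subunit factors 2 fell, and the median was -0.14, beside 3.43% called lower and a median of -0.01 over all genes tested. Bysl (chromosome 17, 47599331 to 47611492, minus strand), which encodes bystin, a factor that stays with the small subunit until late steps, had 2188, 2335 and 2189 reads in wild type and 1572, 1759 and 1442 in knockout. It fell by 0.50 on the log2 scale (SE 0.10, limma adjusted p = 0.0155). Its exons overlap Ccnd3 on the opposite strand, which had 8416 ± 576 reads in wild type and 9159 ± 1358 in knockout (log2 fold change 0.11 ± 0.11, limma adjusted p = 0.563). The call of Bysl was lost in 4 of 16 alternatives, 3 of them with a library left out (limma adjusted p from 0.00395 to 0.0785 over all of them).

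Rrp12 (chromosome 19, 41862851 to 41896173, minus strand), which takes part in the export of both subunits, had 3907, 3894 and 3791 reads in wild type and 2758, 3195 and 3074 in knockout (-0.36 ± 0.08, limma adjusted p = 0.0277), and lost its call in 6 of 16 alternatives, 4 of them without wild-type library 1 or 3 or knockout library 1 or 3. Utp14a, Utp3 and Utp11, further processome proteins, had log2 fold changes of -0.23, -0.21 and -0.21 and did not pass (limma adjusted p = 0.10, 0.142 and 0.153). At the other end, Nop14, a scaffold of the processome, was at 0.05 and Nol7 at 0.01. Utp14b, a retrocopy of Utp14a whose exons overlap Acsl3 on the same strand, ranged from 394 to 1319 reads in wild type and 429 to 1256 in knockout, with both number-2 libraries the highest of their groups.

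The box H/ACA snoRNPs guide pseudouridylation and also hold telomerase RNA. Dkc1 (chromosome X, 75095854 to 75109777, plus strand), which encodes the pseudouridine synthase dyskerin, had 11030, 10849 and 10759 reads in wild type and 8461, 9026 and 8140 in knockout. It fell by 0.35 on the log2 scale (SE 0.08, limma adjusted p = 0.0220), a call lost in 5 of 16 alternatives, 4 of them without wild-type library 1 or 3 or knockout library 1 or 3. Mpp1, whose exons overlap those of Dkc1 on the opposite strand, was at -0.28 ± 0.09 (limma adjusted p = 0.0749). Nop10, a small protein of the same particle, had 3509, 3501 and 3639 and then 2918, 3067 and 2495 reads (-0.33 ± 0.09, limma adjusted p = 0.0556). Neither gene overlapped between groups.

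Npm1 and Ncl, which encode the abundant nucleolar proteins nucleophosmin and nucleolin, were lower in each knockout library without passing the threshold. Npm1 had 74939, 72952 and 69610 reads in wild type and 60831, 60573 and 57184 in knockout (-0.28 ± 0.08, limma adjusted p = 0.0506). Ncl had 92444, 86552 and 90858 and then 81941, 78025 and 76782 (-0.19 ± 0.08, limma adjusted p = 0.163). Npm1 was called lower with TMM scaling and with no filter on low values.

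Levels were compared between genes after division by transcript length and scaling of each library to the same sum. In these length-scaled units Npm1 was the highest member (1786 in wild type and 1550 in knockout), followed by Ddx5 (880 and 913), Fbl (562 and 495), Ncl (442 and 409), Ddx39b (433 and 439) and Nop56 (412 and 378). The order by level and the order by fold change differed: Bop1, at 127 in wild type, stood at place 28 of 90 by its mean over all libraries and Bysl, at 23.3, at place 81. Ddx31 (15.8) was at place 82. The lowest members were Ddx25, Nol3 and Ddx60, at 0.0868 to 0.121 in wild type.

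**Figure D3:**
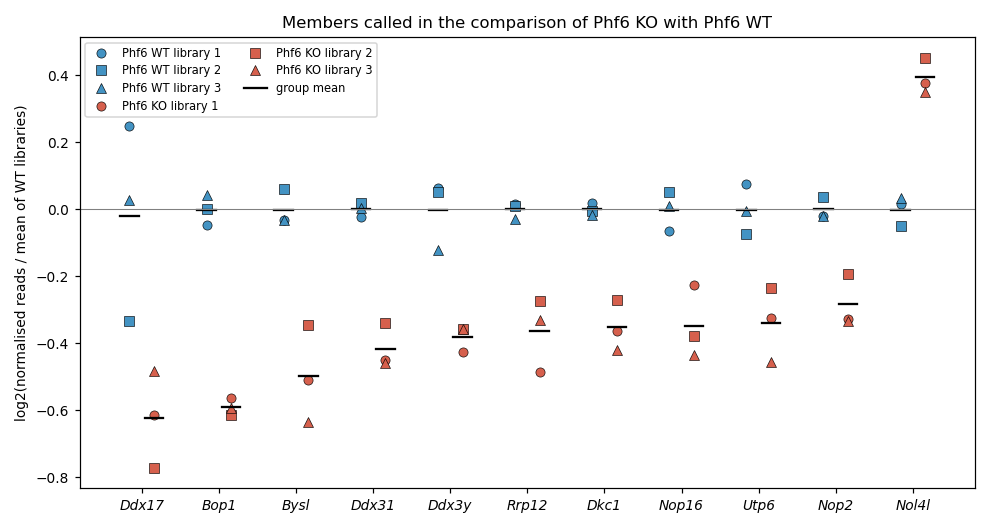
Log2 of normalised reads over the mean of the wild-type libraries (vertical axis), with 1 point per library for the 11 called members; blue is wild type, red knockout, the marker shape gives the library number and black bars are group means. The groups do not overlap for any of the 11, which were chosen by a test on these same values that favours such genes. The points of Bop1 are tightly grouped, and those of Ddx17 are spread, with wild-type library 2 at 19547 reads the lowest of its group.

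The DEAD-box helicases that act in ribosome assembly had 13 members, of which 1 fell, 12 had a log2 fold change below 0 and 7 did not overlap with knockout lower. Over all genes tested 3.43% were called lower, 51.7% were below 0 and 16.2% did not overlap with knockout lower. Among tested genes with a mean of at least 741 normalised reads, 5.86% were called lower and 24.2% did not overlap. Ddx31 (chromosome 2, 28840406 to 28905571, plus strand), a nucleolar helicase of the large subunit pathway, had 1264, 1302 and 1289 reads in wild type and 941, 1015 and 935 in knockout (-0.42 ± 0.09, limma adjusted p = 0.0240), and its call was lost in the same 5 alternatives as that of Dkc1. Ddx21, which binds both polymerase I transcripts and snoRNAs, had 24972, 25129 and 23267 and then 19452, 22417 and 18798 (-0.28 ± 0.09, limma adjusted p = 0.0857). Ddx18 and Ddx10 had log2 fold changes of -0.23 and -0.22 (limma adjusted p = 0.0827 and 0.129). Ddx55 was the single member of this group above 0, at 0.07.

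The remaining 24 members, mostly DEAD-box helicases best known for splicing, export, decay or antiviral sensing, were divided between both directions. With 13 values below 0 and 11 above, and a median of -0.04, they lay near all genes tested. The group had 2 falls and 1 rise. Without it, 8 of 66 members were called lower and none higher in limma (0 higher at an unadjusted p under 0.05), 62 of 66 were below 0 and the median was -0.17. Across all genes tested 3.43% were called lower, 5.32% were called higher and 51.7% were below 0. At an unadjusted limma p under 0.05, 12.7% of all genes were higher. That the 2 sets of members differ was not tested.

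Ddx17 (chromosome 15, 79527736 to 79546741, minus strand), a helicase of splicing and microRNA processing, fell by 0.60 on the log2 scale (SE 0.14, limma adjusted p = 0.0350). It had 29252, 19547 and 25105 reads in wild type and 16080, 14434 and 17647 in knockout, and its call was lost in 8 of 16 alternatives. Its paralog Ddx5 had 81453, 78640 and 73355 and then 73816, 78606 and 76637 (-0.03 ± 0.08), and that direction turned with upper quartile (0.01) and library total scaling (0.06) and without wild-type library 1 (0.01). The log2 ratio of Ddx17 to Ddx5 was -1.68 ± 0.29 (SD, n = 3) in wild type and -2.25 ± 0.17 in knockout, without overlap (exact permutation p = 0.1, adjusted p = 0.15 over the 6 ratios).

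Ddx3y (chromosome Y, 1260771 to 1286629, minus strand), the Y-linked copy of a helicase of translation, had 5343, 5300 and 4698 reads in wild type and 3803, 3989 and 3989 in knockout (-0.38 ± 0.08, limma adjusted p = 0.0224). Its call was lost in 4 of 16 alternatives, 3 of them without wild-type library 1 or knockout library 1 or 3. Its X-linked copy Ddx3x had 41853, 49023 and 37560 and then 39275, 50121 and 39711 (0.01 ± 0.13). The handling of reads that match both copies is not given, so their split is uncertain, as for Ddx19a with Ddx19b and Ddx39 with Ddx39b. The log2 ratio of Ddx3y to Ddx3x was -3.06 ± 0.13 in wild type and -3.45 ± 0.18 in knockout (exact permutation p = 0.1).

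Nol4l (chromosome 2, 153407462 to 153529971, minus strand) was the one member called higher in the main test. It was taken in through its name stem and was grouped with the members of other roles. It had 691, 661 and 700 reads in wild type and 888, 936 and 873 in knockout (0.39 ± 0.10, limma adjusted p = 0.0400), and lost its call in 8 of 16 alternatives, 7 of them with libraries left out. Ddx60, an interferon-induced helicase, had the highest log2 fold change of any member (0.97 ± 0.28, limma adjusted p = 0.0623) at 16.1 ± 2.7 and 33.5 ± 5.7 reads. Ddx19b, of mRNA export, was at 0.26 ± 0.07 (limma adjusted p = 0.0601) and Ddx11, a helicase of sister chromatid cohesion, at -0.35 ± 0.11 (limma adjusted p = 0.0879). Among the alternatives, Ddx19b was called higher with library total scaling, upper quartile scaling and the replicate number as a block. Ddx11 was called lower with that block, without wild-type library 2 and without both number-2 libraries. Ddx60 was called higher without trend and robust variance.

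**Figure D4:**
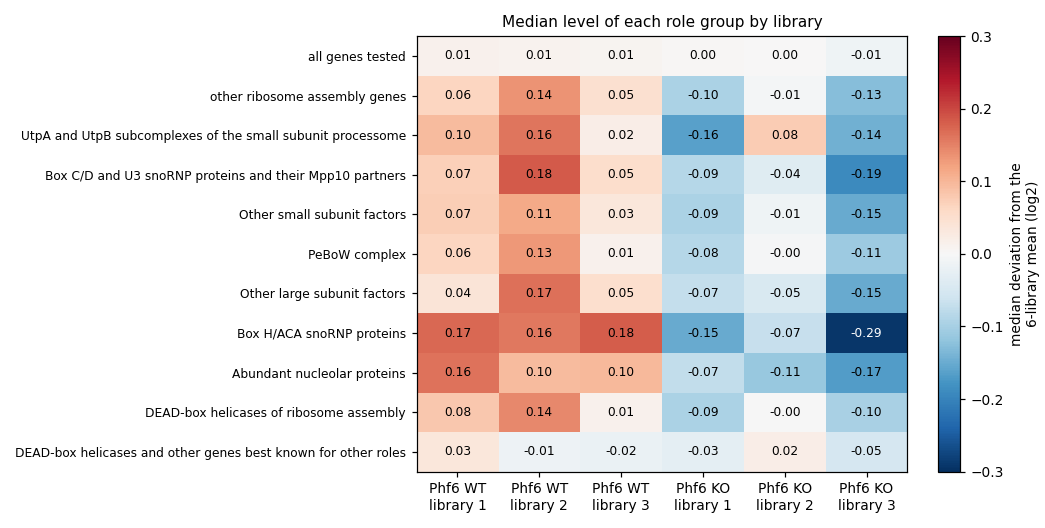
For each role group and library, the median over genes of the deviation from the gene's mean over 6 libraries (log2 scale, red above and blue below). Most groups lie above 0 in wild-type and below 0 in knockout libraries, UtpA and UtpB are at 0.08 in knockout library 2 and above wild-type library 3 at 0.02, and all genes tested run from 0.01 to -0.01.

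The members were also described library by library. The median deviation of the 90 members from each gene's mean was 0.07, 0.13 and 0.03 in wild type and -0.09, -0.01 and -0.13 in knockout, on the log2 scale. The groups did not overlap, and knockout library 2 lay closest to wild type. The neutrophil marker sum was 143, 532 and 238 CPM in wild type and 1545, 1632 and 1291 in knockout. Within each group library 2 was highest in both measures. Between groups the marker sum was higher and the members' median lower in knockout. The part of the marker cells in the members' values was not tested.

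Further genes of the pathway were counted in the same way. Of 92 other ribosome assembly genes, a list that holds processome, snoRNP, exosome and late maturation factors and no member, 8 were called lower and none higher in limma (28 lower and 0 higher at an unadjusted p under 0.05), with a median of -0.15. Values were below 0 for 81 and 41 did not overlap with knockout lower. Over all genes tested 3.43% were called lower, 5.32% higher, 51.7% were below 0 and 16.2% did not overlap with knockout lower. At an unadjusted limma p under 0.05, 12.5% of all genes were lower and 12.7% higher. The count of 8 fell to 0 without wild-type library 1, wild-type library 3 or knockout library 3. It fell to 4 without knockout library 1, to 3 without knockout library 2 and to 3 with library totals. Over all genes tested the share called lower was also smaller in these settings, from 0.326% to 1.96%. Tcof1, the treacle protein that links polymerase I to snoRNPs, had 30789, 26145 and 28993 reads in wild type and 22339, 21030 and 20073 in knockout (-0.44 ± 0.09, limma adjusted p = 0.0179). The AAA+ ATPase genes Ruvbl2 and Ruvbl1, which help to assemble box C/D particles, fell by 0.40 and 0.33. Lyar, Wdr46 and the helicase gene Dhx37 fell by 0.37, 0.35 and 0.35.

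**Figure D5:**
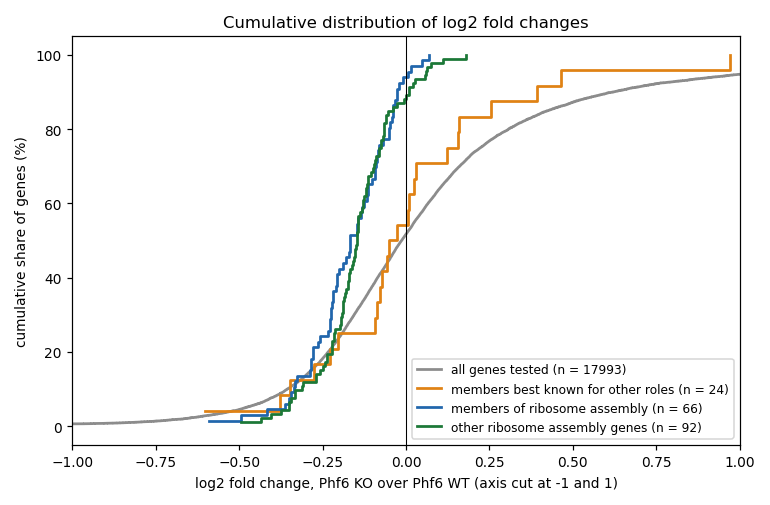
Cumulative share of genes (vertical axis, %) by log2 fold change, Phf6 KO over Phf6 WT (horizontal axis, cut at -1 and 1), for 17993 genes tested, 66 members of ribosome assembly, 24 members best known for other roles and 92 other ribosome assembly genes. At 0 the curves have passed 62 of the 66, 81 of the 92 and 13 of the 24 genes, and 51.7% of all genes tested.

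Promoters were examined for the letters CACGTG, the E-box that MYC and related factors can bind. RefSeq (GRCm38.p6) windows from 250 bases before to 50 after the start were found for 74 of the 90 members, by symbol. CACGTG, which reads the same on both strands, was in 15 of the 74 (20.3%), in 16 of 77 other ribosome assembly genes (20.8%), in 11.3% of tested genes with a window and in 8.09% of all genes of the table. Of the members called lower 7 had a window and 1, Nop2, held the letters. GGGCGG or its complement CCGCCC, the GC-box, was in 73.0% of the members and 65.0% of tested genes. The 100 bases before the start are shown for 3 members that hold CACGTG there and for Bysl and Dkc1, which were called lower and hold neither motif in this stretch. Capitals mark CACGTG and the GC-box, and each is written 5′ to 3′ on the gene's strand.
Nop2 (chr6:125131783-125131882, plus strand): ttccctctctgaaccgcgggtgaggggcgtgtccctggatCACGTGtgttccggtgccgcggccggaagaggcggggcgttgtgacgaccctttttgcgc
Utp18 (chr11:93885767-93885866, minus strand): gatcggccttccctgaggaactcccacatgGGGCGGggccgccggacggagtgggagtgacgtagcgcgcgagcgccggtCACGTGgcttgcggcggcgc
Nol11 (chr11:107189382-107189481, minus strand): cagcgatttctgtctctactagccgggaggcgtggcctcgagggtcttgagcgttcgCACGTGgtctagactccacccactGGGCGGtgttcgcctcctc
Bysl (chr17:47611493-47611592, minus strand): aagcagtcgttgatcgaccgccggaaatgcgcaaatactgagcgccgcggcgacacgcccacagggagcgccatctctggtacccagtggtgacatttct
Dkc1 (chrX:75095754-75095853, plus strand): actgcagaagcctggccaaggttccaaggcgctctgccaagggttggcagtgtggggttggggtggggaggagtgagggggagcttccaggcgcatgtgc

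The 15 members that hold the letters had log2 fold changes from -0.28 for Nop2 to 0.46 for Ddx25, and no test was made of them. Nop2 fell by 0.28 on the log2 scale, Utp18 was at -0.23, Nol11, a processome protein, at -0.20 and Pes1, which holds CACGTG after the start, at -0.07. Bysl and Dkc1, at -0.50 and -0.35, hold none within the window of 300 bases.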

How the data were processed

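PolyA RNA of 6 tumour samples was sequenced as paired ends of 150 bases from libraries of a NEBNext Ultra kit, per the labels' protocols. Tools named in the submitters' processing notes are DESeq2, featureCounts, STAR 2.6.0a and bcl2fastq 1.8.4, with the build GRCm38; the sources used here give no annotation, strand setting or rule for multiple matches. The authors deposited a signal per gene and library that is a gene count divided by 1 factor per library, as read from the values: dividing by each library's smallest value gave whole numbers within 0.01 for 100% of values, which are called reads here. Of 23314 rows 8 without an identifier, at most 0.00106% of a library's reads, were left out. Columns and replicate numbers were matched by name, and 23277 of 23306 identifiers were found in GENCODE M21.

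Values plus a pseudocount of 2 were taken to log2 and tested with limma 3.58.1 under R 4.3.3, with trend and robust variance and Benjamini-Hochberg adjustment, for genes of at least 10 in at least 3 libraries, with the group as its only term. Fold changes on this scale understate low genes. The test was also run on simulated counts with the same dispersion for each gene and as many rises as falls. These settings differ from the data, so no conclusion is drawn from that run. Lengths were those of the longest protein-coding GENCODE transcript. Of 88 promoter windows 85 shared a 16-base run with a transcript of their gene and none with its complement. Named genes were Phf6, called members, up to 3 more of each role group by p, the 6 most abundant per length, both extremes and up to 6 called pathway genes; others are named after their values were seen. The members and lists were chosen with earlier results of these data known. Alternatives covered scaling, filters, pseudocounts, variance model, a replicate block and each library left out. Planned count tests were not run, since a check of the units did not accept the 2 libraries whose step was closest to 1. Dividing by the step gave whole numbers in those libraries too. Figures used matplotlib 3.10.9.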

Additional observations from a re-analysis of the deposited data

How the results depend on the processing

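The main counts were 10 members lower and 1 higher, 8 other ribosome assembly genes lower, 41 members without overlap and, over all genes, 618 lower and 957 higher. With library totals these were 5 and 2 members, 3 pathway genes, 24 without overlap and 300 lower over all genes; the median of the members was -0.045, that of box C/D proteins -0.13, other small subunit factors -0.055, other large subunit factors -0.042, Npm1 with Ncl -0.15 and assembly helicases -0.031, while the PeBoW median (0.014), that of genes of other roles (0.045), Pes1 (0.014), Wdr12 (0.074), Ddx5 (0.057) and Ddx39b (0.026) turned positive. Calls were then 0 for UtpA and UtpB, 1 for other small subunit and 0 for other large subunit factors. The median over all genes tested was 0.07 with this scaling. With upper quartile scaling 6 members were lower and 2 higher and 4 pathway genes lower. Over all genes 425 (2.37%) were then lower and 993 higher. UtpA and UtpB and the other large subunit factors had 0 calls with this scaling, and Wdr12 (0.025) and Ddx5 (0.0086) turned positive. With TMM scaling, and with no filter, Npm1 was called (1 of the abundant nucleolar proteins), and with no filter 1 other large subunit factor was. Without trend and robust variance 1 member was lower, 124 genes lower and 528 higher, 0 pathway genes, 1 gene of other roles and 0 members of each other role group but PeBoW were called. At adjusted p of 0.01 there were 1 and 0 members and at 0.1 20 and 3. The shares of all genes tested at these thresholds are not given, so no result is read from these counts. Without genes of other roles 0 were higher.

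Same-numbered libraries did not deviate together in each case (correlation over genes tested 0.01, 0.50 and 0.14 for numbers 1 to 3), so the numbers were not taken to pair the samples; wild-type library 1 was closer to knockout library 3 (0.18) and wild-type library 3 to knockout library 1 (0.38). With the replicate number as a block, 16 members were lower and 2 higher, 1109 genes lower and 1459 higher, and calls were 4 for other large subunit factors, 2 for H/ACA proteins, 2 for assembly helicases and 6 for genes of other roles.

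With 1 library left out, members lower ranged from 1 to 9 and higher were 0, genes lower from 57 to 783 and higher from 134 to 1156, and pathway genes lower from 0 to 9. Calls ranged from 0 to 1 for UtpA and UtpB, H/ACA proteins and assembly helicases, 0 to 2 for other small subunit, 0 to 1 for other large subunit factors and 0 to 3 for genes of other roles. Medians ranged from -0.20 to -0.094 for other large subunit factors and from -0.078 to -0.000321 for genes of other roles. Wdr12 ranged from -0.049 to 0.030 and Ddx5 from -0.068 to 0.0071. Without both number-2 libraries, chosen after seeing the data, 11 members were lower and 0 higher, 933 genes and 14 pathway genes lower, 1 other large subunit factor and 2 H/ACA proteins were called. The smallest called difference of a member was -0.28 on the log2 scale, and 3 libraries a group limit what can be called. The planned edgeR and DESeq2 alternatives were not run.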
